A study of Mus musculus with 59 samples.

Results

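Genes used as markers of the subfields of the hippocampus were followed through every library of a mouse brain RNA-seq study. The set holds 9 of the 57180 gene rows of the count table, taken by symbol: the dentate gyrus genes Prox1, Il16, C1ql2 and Dsp, the CA field genes Fibcd1, Spink8, Wfs1 and Amigo2, and Zbtb20, which marks both dentate gyrus and CA1 and was kept apart from both groups. All 9 had a row and all 9 passed the filter on low counts in both tissues. The genes were chosen by name, with earlier results of these data known. Which measured values they were selected on is not recorded, so their level in hippocampus against cortex is given as a description without a test.

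Poly(A) RNA was sequenced from cortex and hippocampus of male mice of 4 labelled genotypes, each library from 1 animal. Animals labelled WT are Mrpl40 +/+,Slc25a1 +/+ (9 cortex and 8 hippocampus libraries), Slc25a1 het animals are Mrpl40 +/+,Slc25a1 -/+ (7 and 7), Mrpl40 het animals are Mrpl40 -/+,Slc25a1 +/+ (7 and 7), and double het animals are Mrpl40 -/+,Slc25a1 -/+ (7 and 7). The citrate carrier of mitochondria is the product of Slc25a1, and Mrpl40 encodes a protein of the mitochondrial ribosome, and the series title places both in a microdeletion locus. In all there were 30 cortex and 29 hippocampus libraries, and 29 of the 30 animals gave both tissues. No age, strain or dissection border is given in the labels read here.

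The hippocampus is built from fields of different principal neurons. Granule cells of the dentate gyrus send mossy fibres to the pyramidal cells of CA3, whose axons run on to CA1, with the small CA2 field between them, and CA1 projects to the subiculum. Each field has a lasting gene signature, and the signature also shifts along the axis from the dorsal to the ventral pole, so the level of such genes in a piece of whole hippocampus depends both on expression in each cell and on which fields the piece contains. In bulk RNA, fewer cells of a type and less RNA per cell cannot be told apart.

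Library totals ran from 21443017 to 32120906 counts. Slc25a1, the targeted gene that checks the labels, went against the label in 6 animals in both tissues. They were 2 labelled WT (replicates 6 and 7), 2 labelled Slc25a1 het (replicates 3 and 4) and 2 labelled double het (replicates 5 and 6). Mrpl40 does not check the labels, since its median lay between 15.1 and 16.3 CPM in all 4 hippocampus groups (CPM, the reads of a gene scaled to a common library total). Genotypes below are therefore those of the labels. A few hippocampus libraries stood apart: replicate 3 labelled Slc25a1 het had 412 CPM of summed cerebellar granule cell markers (next highest 11.5 CPM), and replicate 6 labelled double het and replicate 5 labelled Mrpl40 het had the highest choroid plexus markers, 95.8 and 76.0 CPM. Over the 7 choroid plexus markers the median library had 32.3 CPM, and Folr1, Kcnj13 and Otx2 were at 0 in some libraries.

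The promoter windows of 5 genes are shown because 3 of them, Prox1, C1ql2 and Dsp, rose and fell together across hippocampus libraries (below), while Il16 did not follow them and Fibcd1 followed other CA1 genes. Each is the 250 bases before the start site given by RefSeq on GRCm38.p6, 5′ to 3′ on the gene's strand. Capitals mark any match, on either strand, to an E-box of the form CAGNTG, to TGACG, or to the TATA box TATAAA.
Prox1 (chr1:190170828-190171077, minus strand): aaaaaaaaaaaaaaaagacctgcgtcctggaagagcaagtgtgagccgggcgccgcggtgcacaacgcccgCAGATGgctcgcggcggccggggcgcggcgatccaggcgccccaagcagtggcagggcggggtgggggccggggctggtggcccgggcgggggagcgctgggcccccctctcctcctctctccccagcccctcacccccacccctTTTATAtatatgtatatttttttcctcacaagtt
C1ql2 (chr1:120340332-120340581, plus strand): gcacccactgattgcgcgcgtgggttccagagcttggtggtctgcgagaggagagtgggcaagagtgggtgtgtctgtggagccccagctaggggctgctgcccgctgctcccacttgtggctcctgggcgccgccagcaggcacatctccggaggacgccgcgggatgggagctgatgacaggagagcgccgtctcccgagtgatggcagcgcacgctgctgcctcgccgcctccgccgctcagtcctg
Dsp (chr13:38151044-38151293, plus strand): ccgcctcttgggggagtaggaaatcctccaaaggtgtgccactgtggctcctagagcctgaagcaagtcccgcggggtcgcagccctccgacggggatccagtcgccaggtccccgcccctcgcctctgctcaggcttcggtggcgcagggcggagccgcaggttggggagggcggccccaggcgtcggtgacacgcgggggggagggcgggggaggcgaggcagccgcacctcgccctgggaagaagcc
Il16 (chr7:83735540-83735789, minus strand): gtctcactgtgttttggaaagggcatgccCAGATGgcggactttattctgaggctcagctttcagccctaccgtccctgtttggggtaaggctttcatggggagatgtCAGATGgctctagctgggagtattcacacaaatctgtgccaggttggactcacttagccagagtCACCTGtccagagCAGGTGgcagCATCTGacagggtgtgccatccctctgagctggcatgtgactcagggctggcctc
Fibcd1 (chr2:31846006-31846255, minus strand): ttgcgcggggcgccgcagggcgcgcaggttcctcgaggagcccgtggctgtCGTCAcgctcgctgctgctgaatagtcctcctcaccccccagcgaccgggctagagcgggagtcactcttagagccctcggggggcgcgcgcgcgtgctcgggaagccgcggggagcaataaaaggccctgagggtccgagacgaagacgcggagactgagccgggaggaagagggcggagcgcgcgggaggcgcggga

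Among the windows shown for the co-varying dentate genes, only that of Prox1 held any of the 3 motifs. It had 1 E-box and 1 match to the TATA box letters, the latter on the strand opposite to the gene. The Il16 window held 5 E-boxes and the Fibcd1 window 1 TGACG. Among all 32851 windows of the same length, 44.8% held the E-box letters, 17.8% TGACG and 12.4% TATAAA. GC content was 64.8% for Prox1, 68.8% for C1ql2, 72.4% for Dsp, 55.2% for Il16 and 71.6% for Fibcd1, against a median of 52.4% over all windows. RefSeq lists further start sites for Il16 and Prox1, whose windows are not shown. The other Prox1 window held 0 matches to any of the 3 motifs. The other Il16 windows held 1 and 0 E-boxes and neither of the other motifs. Windows were found for 8 of the 9 genes.

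In the GENCODE vM21 annotation on GRCm38, Prox1 and C1ql2 lie on chromosome 1 (190118035 to 190170714 and 120340582 to 120343174), Il16 on chromosome 7 (83642825 to 83745726) and Dsp on chromosome 13 (38151294 to 38198577). Fibcd1 lies on chromosome 2 (31813290 to 31846005), Spink8 on chromosome 9 (109812280 to 109826633), Wfs1 on chromosome 5 (36966104 to 36989205) and Amigo2 on chromosome 15 (97244125 to 97247287). Zbtb20 lies on chromosome 16 (42875881 to 43642602), the chromosome that also carries Slc25a1 and Mrpl40. Exons of Prox1, Il16, Dsp, Amigo2 and Zbtb20 overlap a gene on the other strand, Prox1os, Stard5 and Pced1b among them. The library kit marks strand, but whether the counting used it is stated nowhere in the labels read here.

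Prox1, a homeobox transcription factor that sets and keeps granule cell identity, was high in every hippocampus library. In hippocampus it ran from 166.5 to 272 CPM (median 244) in WT libraries, 141 to 259 (238) in Mrpl40 het, 176 to 309 (199) in double het and 189 to 299.9 (264) in Slc25a1 het libraries. In cortex it ran from 10.7 to 12.8 CPM (median 12.0) in WT, 11.3 to 15.3 (12.9) in Mrpl40 het, 11.2 to 15.3 (12.7) in double het and 11.9 to 13.9 (12.7) in Slc25a1 het libraries. The tissues did not overlap and the genotypes did. Within animals, hippocampus exceeded cortex by 12.4 to 27.55 times (median 19.3, 29 animals).

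C1ql2 encodes a secreted C1q-like protein that acts at mossy fibre synapses. Its hippocampus level was 109 to 204 CPM (median 179) in WT, 97.9 to 182 (161) in Mrpl40 het, 101 to 199 (161) in double het and 138 to 196 (178) in Slc25a1 het libraries. Cortex libraries held 0.467 to 1.76 CPM (median 0.976) in WT, 0.561 to 2.85 (1.00) in Mrpl40 het, 0.576 to 6.14 (1.00) in double het and 0.454 to 1.66 (0.745) in Slc25a1 het animals. C1ql2 was thus near the bottom of detection in cortex, where 12 to 152 reads were counted per library, and replicate 3 labelled double het gave the 6.14 CPM. The median ratio of hippocampus to cortex within an animal was 163.

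Dsp encodes desmoplakin, which links desmosomes to intermediate filaments and in the brain is a granule cell marker. Hippocampus levels were 70.4 to 149 CPM (median 142) in WT, 82.4 to 161 (134) in Mrpl40 het, 97.5 to 192 (111) in double het and 96.9 to 186 (152) in Slc25a1 het libraries. In cortex Dsp stayed at 0.0734 to 1.06 CPM over all 30 libraries (2 to 28 reads each), with group medians of 0.450 in WT, 0.618 in Mrpl40 het, 0.499 in double het and 0.492 in Slc25a1 het libraries. Its log2 ratio of hippocampus to cortex in WT animals, 8.14 ± 0.21 (SE), was the highest of the 9 genes, and it rests on these few cortex reads.

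Il16 encodes the precursor of interleukin 16, which neurons make in a PDZ-domain form. It ran from 18.3 to 50.8 CPM (median 40.7) in WT hippocampus, 36.3 to 66.4 (46.4) in Mrpl40 het, 30.9 to 52.9 (45.4) in double het and 26.8 to 49.0 (40.3) in Slc25a1 het libraries. In cortex the ranges were 1.40 to 2.48 CPM (median 1.70) in WT, 1.48 to 2.10 (1.64) in Mrpl40 het, 0.910 to 2.23 (1.31) in double het and 0.964 to 2.35 (1.45) in Slc25a1 het libraries. Every animal had more in hippocampus, by a median of 24.8 times.

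Fibcd1, a membrane receptor with a fibrinogen-like domain that binds acetylated sugars, is a CA1 pyramidal cell marker. Its hippocampus levels were 33.6 to 119.5 CPM (median 66.8) in WT, 38.4 to 175 (88.5) in Mrpl40 het, 32.0 to 176 (67.4) in double het and 23.7 to 142 (68.7) in Slc25a1 het libraries. Cortex values were 5.95 to 9.93 CPM (median 6.89) in WT, 5.97 to 11.8 (8.25) in Mrpl40 het, 6.58 to 9.49 (8.34) in double het and 6.22 to 9.94 (7.37) in Slc25a1 het libraries. The lowest hippocampus library stood above the highest cortex library, but within hippocampus the range was wide. The ratio within an animal ran from 3.21 to 21.2 (median 9.19).

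Spink8 encodes a serine protease inhibitor of the Kazal type and is another CA1 marker. It gave 2.85 to 10.3 CPM (median 5.11) in WT hippocampus, 2.48 to 21.7 (8.23) in Mrpl40 het, 2.37 to 20.5 (6.31) in double het and 1.42 to 11.85 (5.42) in Slc25a1 het libraries. In cortex it stayed between 0.151 and 1.10 CPM over all libraries, with group medians of 0.382 in WT, 0.517 in Mrpl40 het, 0.591 in double het and 0.473 in Slc25a1 het libraries. Even the lowest hippocampus library lay above these, and the median animal ratio was 10.7.

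Wfs1 encodes wolframin, a protein of the endoplasmic reticulum that marks dorsal CA1 but is also made by upper-layer cortical neurons. Hippocampus levels were 39.0 to 131 CPM (median 67.3) in WT, 42.4 to 249 (65.6) in Mrpl40 het, 52.9 to 211 (90.8) in double het and 32.0 to 183 (79.7) in Slc25a1 het libraries. Cortex levels were 70.7 to 134 CPM (median 83.4) in WT, 53.3 to 93.3 (77.5) in Mrpl40 het, 71.6 to 90.7 (73.9) in double het and 49.7 to 124 (86.7) in Slc25a1 het libraries. Wfs1 was the 1 gene of the 9 whose tissues overlapped: hippocampus was higher in 12 of 29 animals, and the ratio ran from 0.291 to 3.21. As a mark of hippocampus against cortex the label does not hold for Wfs1 in these tissue pieces.

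Amigo2, a leucine-rich repeat adhesion protein, marks CA2 and CA3 pyramidal cells. Hippocampus levels were 11.4 to 21.5 CPM (median 14.9) in WT, 10.4 to 47.4 (16.6) in Mrpl40 het, 8.55 to 22.5 (18.4) in double het and 8.83 to 15.3 (11.3) in Slc25a1 het libraries. In cortex the ranges were 4.88 to 5.90 CPM (median 5.47) in WT, 4.28 to 6.81 (5.87) in Mrpl40 het, 4.87 to 6.89 (5.82) in double het and 5.02 to 6.25 (5.30) in Slc25a1 het libraries. The tissues stood close but apart, and the ratio within an animal ran from 1.24 to 9.46 (median 2.61).

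Zbtb20, a zinc finger repressor needed for hippocampal identity during development, was high in every hippocampus library. It ran from 318 to 594 CPM (median 559) in WT hippocampus, 491 to 632 (552) in Mrpl40 het, 446 to 631 (529.9) in double het and 418 to 594 (535) in Slc25a1 het libraries. Cortex gave 68.4 to 81.5 CPM (median 70.3) in WT, 69.9 to 76.0 (71.3) in Mrpl40 het, 60.8 to 76.9 (69.3) in double het and 62.7 to 91.0 (73.7) in Slc25a1 het libraries. The tissues stood far apart, and the ratio within an animal ran from 4.24 to 9.11 (median 7.64).

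**Figure D1:**
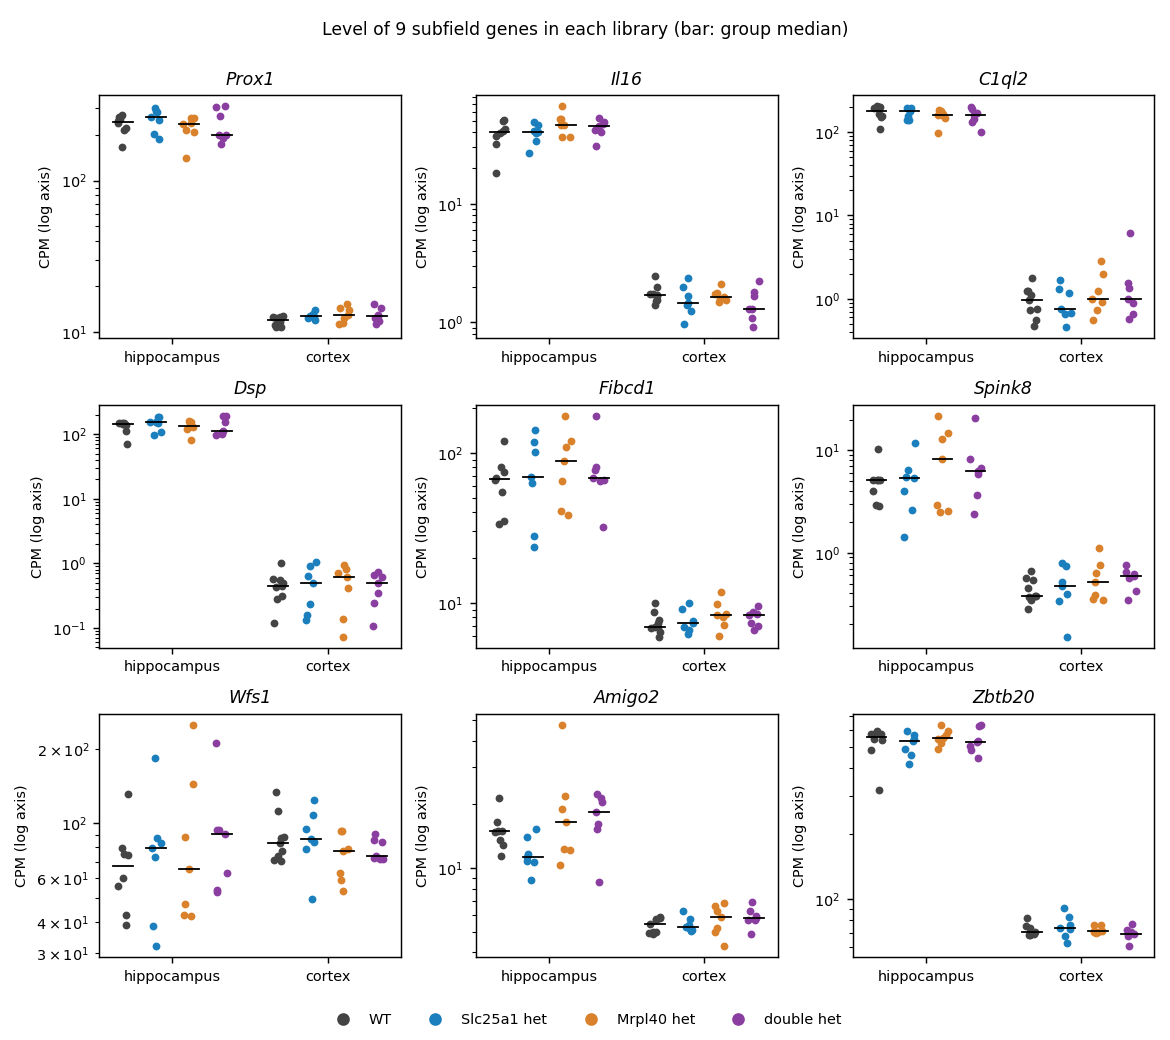
CPM of each gene on a log axis, hippocampus to the left and cortex to the right, with 1 point per library, colours for the labelled genotypes and a bar at each group median. Hippocampus stands above cortex without overlap in every panel but that of Wfs1, and the genotypes of a tissue overlap in all panels.

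In WT animals, 8 of the 9 genes were at least 2-fold higher in hippocampus than in cortex, where 6.16% of all tested genes were, and in 8 of 9 every hippocampus library lay above every cortex library, as in 7.11% of genes. The fitted log2 ratios in WT were 7.46 ± 0.27 for C1ql2, 4.46 ± 0.10 for Il16 and 4.30 ± 0.12 for Prox1 (SE, with the animal as a block). For the CA genes they were 3.44 ± 0.35 for Spink8, 3.14 ± 0.29 for Fibcd1, 1.46 ± 0.19 for Amigo2 and -0.40 ± 0.32 for Wfs1, and for Zbtb20 2.85 ± 0.08. All 4 dentate genes thus had higher ratios than any CA gene. Nothing was read from these shares, since the genes were named as hippocampal.

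**Figure D2:**
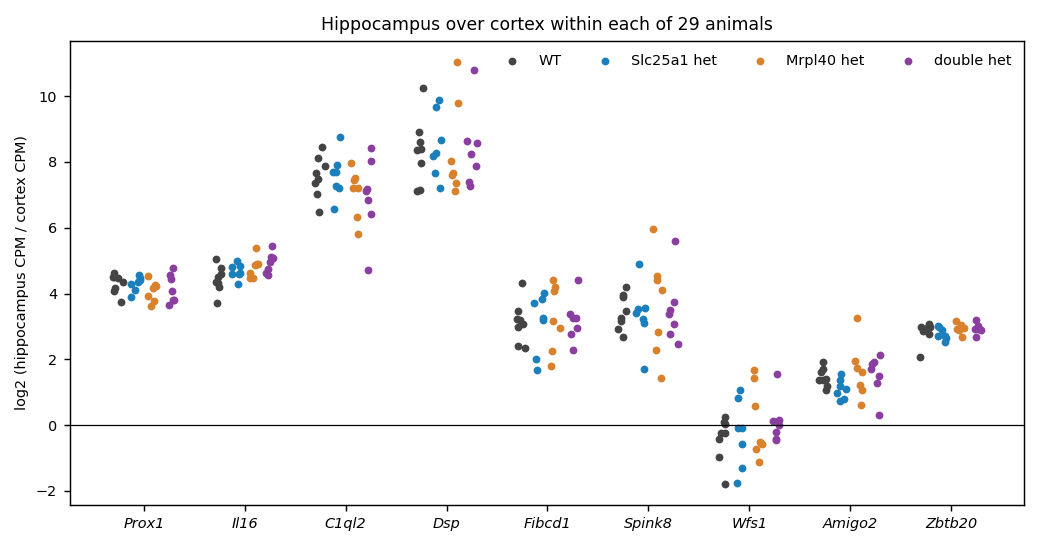
The log2 ratio of hippocampus to cortex CPM within each of 29 animals, 1 point per animal, coloured by labelled genotype; the line at 0 is equal level. Dsp and C1ql2 lie highest, and the points of Wfs1 fall on both sides of 0.

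Per kilobase of annotated exon, which allows levels of different genes to be compared, C1ql2 led in WT hippocampus with a median of 89.6 CPM per kb, followed by Prox1 with 29.1. Zbtb20 (18.2), Wfs1 (17.8), Dsp (14.7) and Fibcd1 (14.1) formed a middle group whose ranges overlapped. Spink8 (6.23), Il16 (5.18) and Amigo2 (4.72) were lowest. In WT cortex the order changed: Wfs1 led with 22.0 CPM per kb, ahead of Zbtb20 with 2.29, and Dsp was last with 0.0466. The exon lengths are unions over all annotated transcripts, and the 30730 bases of Zbtb20 lower its value the most.

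When the 8 groups of tissue and genotype were ordered by their mean for each gene, neighbours mostly lay within their own spread. For Il16, C1ql2, Dsp, Fibcd1, Spink8 and Zbtb20 the only gap larger than the larger SD of the 2 neighbours was that between the tissues. Prox1 had 1 more such gap, in cortex between Slc25a1 het and WT, and Amigo2 1 more, in hippocampus between WT and Slc25a1 het. Wfs1 had none.

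Within hippocampus the 9 genes differed strongly in how much they varied from animal to animal. Taken as deviations from the genotype mean of log2 CPM, the CA1 genes were among the most variable genes measured: the SD was 0.97 for Spink8, 0.79 for Fibcd1 and 0.77 for Wfs1, and only 0.314%, 0.998% and 1.13% of 21351 genes had a larger one. Amigo2 followed with 0.47 (14.2% larger, and 1.17% among genes of similar mean log2 CPM). The dentate genes were steadier than these, with 0.37 for Dsp, 0.35 for Il16, 0.30 for C1ql2 and 0.28 for Prox1, and Zbtb20 the steadiest with 0.21, against a median of 0.19 over all genes. For their level they were still variable. Among genes of similar mean log2 CPM, only 0.834% had a larger SD than Dsp, 1.58% than C1ql2, 1.61% than Il16, 1.91% than Prox1 and 5.69% than Zbtb20. From lowest to highest of 29 libraries, Spink8 spanned 15.3 times, Wfs1 7.78, Fibcd1 7.44 and Amigo2 5.54, but Il16 3.62, Dsp 2.73, Prox1 2.19, C1ql2 2.08 and Zbtb20 1.99 times.

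In cortex the pattern was another one. The SD of Fibcd1 fell to 0.25, of Wfs1 to 0.31 and of Zbtb20 to 0.11, while C1ql2 (0.77) and Dsp (0.88) were the widest, both at few reads. Wfs1 stayed variable for its level. Among genes of similar mean log2 CPM in cortex, 0.796% had a larger SD than Wfs1, 10.5% than Fibcd1 and 18.8% than Zbtb20. Library depth did not go with any member in hippocampus: over 29 libraries Pearson's r ranged from -0.28 (Fibcd1, Spearman's rho -0.34) to 0.12 (Prox1, rho 0.22), and no permutation p passed after Benjamini-Hochberg adjustment over the 9 genes (lowest adjusted p = 0.892).

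**Figure D3:**
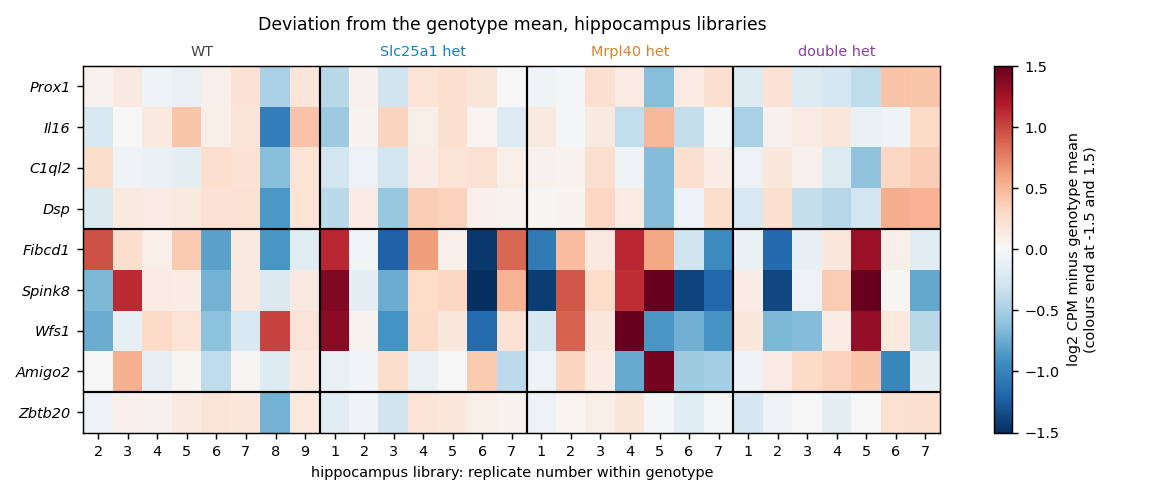
Deviation of log2 CPM from the genotype mean for the 9 genes (rows) in the 29 hippocampus libraries (columns, replicate numbers within labelled genotype); lines separate genotypes and dentate, CA and shared genes. Fibcd1, Spink8 and Wfs1 are dark red or dark blue together in many libraries, and replicate 8 labelled WT and replicate 5 labelled Mrpl40 het show blue in Prox1, C1ql2 and Dsp.

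Some libraries stood far from their genotype mean in several genes, though wide deviations were not confined to them. Spink8, for one, also deviated by 1.11 in replicate 3 labelled WT, -1.42 in replicate 1 labelled Mrpl40 het and -1.365 in replicate 2 labelled double het. In replicate 5 labelled double het, Fibcd1 (176 CPM), Spink8 (20.5) and Wfs1 (211) were all highest of their group, and its summed other CA1 markers were the highest of 29 libraries (528 CPM, median library 239), with mossy cell markers the lowest (21.2 CPM, median 54.2). Replicate 1 labelled Slc25a1 het was of the same kind, with 183 CPM of Wfs1 and the next highest CA1 markers (522 CPM). Replicate 6 labelled Slc25a1 het was the reverse, with deviations of -1.45, -1.60 and -1.16 for Fibcd1, Spink8 and Wfs1.

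Replicate 8 labelled WT was low in all 4 dentate genes and Zbtb20 (Il16 18.3, Dsp 70.4, Zbtb20 318 CPM) and high in Wfs1 (131 CPM). Its summed subiculum markers were the highest of 29 libraries (167 CPM, median 66.7), as were its neocortical layer (324, median 262) and oligodendrocyte markers (4468, median 2669). The CA1 genes split in this library, with deviations of 1.01 for Wfs1, -0.87 for Fibcd1 and -0.22 for Spink8. Replicate 5 labelled Mrpl40 het had the lowest Prox1 (141 CPM) and C1ql2 (97.9 CPM) of the hippocampus libraries and the highest Amigo2 (47.4 CPM), Il16 (66.4 CPM) and Spink8 (21.7 CPM). Its ventral hippocampus markers (520 CPM, median 182) and CA3 markers (507, median 299) were also the highest. Here too the CA1 genes split, with deviations of 1.67 for Spink8, 0.58 for Fibcd1 and -0.87 for Wfs1. The part of tissue composition in these values was not tested.

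Pairs of members were compared over the 29 hippocampus libraries as deviations from genotype means, with permutations within genotype and adjustment over the 36 pairs. Since the naming of the genes is not independent of these data, the p-values describe these libraries. Of the 36 pairs, 15 passed, 11 positive and 4 negative. In cortex none of 36 passed by Pearson's r, which ran from -0.49 to 0.41, and the difference between the tissues was not tested.

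Prox1, C1ql2 and Dsp moved as 1 unit. Prox1 and Dsp had r = 0.92 (rho 0.92, permutation adjusted p = 9e-05 and 0.00018), and r = 0.90 without the 2 libraries farthest from the median of Prox1. Prox1 and C1ql2 had r = 0.90 (rho 0.83, permutation adjusted p = 9e-05 and 0.00018; 0.84 without 2 libraries), and C1ql2 and Dsp r = 0.78 (rho 0.69, permutation adjusted p = 0.000144 and 0.0013; 0.65 without 2 libraries). The smallest p these permutations can give before adjustment is 1e-05. Their ratios were correspondingly narrow: Dsp over Prox1 in CPM ran from 0.423 to 0.658 over the 29 libraries, and C1ql2 over Prox1 from 0.576 to 0.842.

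Il16 did not follow them. Its r was 0.23 with Prox1, 0.24 with C1ql2 and 0.37 with Dsp (rho 0.12, 0.04 and 0.23), with permutation adjusted p of 0.369, 0.38 and 0.133, and without 2 libraries it was 0.24, -0.16 and -0.003. The ratio of Il16 to Prox1 ran from 0.110 in replicate 8 labelled WT to 0.470 in replicate 5 labelled Mrpl40 het. Its pair with Amigo2 was positive (r = 0.43, rho 0.43, permutation adjusted p = 0.0355 and 0.0778; 0.50 without 2 libraries), but did not pass without replicate 5 labelled Mrpl40 het (0.31, permutation adjusted p = 0.168) or without the 3 hippocampus libraries highest in choroid plexus and cerebellar markers (0.33, permutation adjusted p = 0.171). Il16 and Wfs1 went opposite ways (r = -0.46, rho -0.30, permutation adjusted p = 0.035 and 0.308; -0.27 without 2 libraries), a relation that rests on those libraries and did not pass without replicate 8 labelled WT (-0.38, permutation adjusted p = 0.162). By its co-variation, then, Il16 was not grouped with the granule cell genes here.

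Among CA genes, the 3 CA1 members moved together. Fibcd1 and Spink8 had r = 0.81 (rho 0.83, permutation adjusted p = 9e-05 and 0.00018; 0.78 without 2 libraries). Spink8 and Wfs1 had r = 0.67 (rho 0.65, permutation adjusted p = 0.00283 and 0.00468; 0.58 without 2 libraries), and Fibcd1 and Wfs1 r = 0.61 (rho 0.60, permutation adjusted p = 0.00697 and 0.0109; 0.52 without 2 libraries). They were less tied in proportion than the dentate genes, since Wfs1 over Fibcd1 ran from 0.327 to 3.90 and Spink8 over Fibcd1 from 0.0244 to 0.181. Amigo2, of CA2 and CA3, passed with none of them (r from -0.24 to 0.33).

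Between dentate and CA genes, 5 of 16 pairs passed. C1ql2 and Spink8 had r = -0.54 (rho -0.46, permutation adjusted p = 0.0108 and 0.0486; -0.55 without 2 libraries). Amigo2 was negative with Prox1 (r = -0.51, rho -0.28, permutation adjusted p = 0.036 and 0.308) and with Dsp (r = -0.44, rho -0.31, permutation adjusted p = 0.0405 and 0.295), and without replicate 5 labelled Mrpl40 het these became -0.30 and -0.28 with permutation adjusted p of 0.293 and 0.295. The remaining pairs that passed were those of Il16 above. CPM are shares of 1 library total, so the values of different genes are not independent of each other.

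Among the pairs of members, Zbtb20 went with the dentate side. All 4 of its pairs with dentate genes passed, led by Dsp (r = 0.81, rho 0.78, permutation adjusted p = 9e-05 and 0.00018; 0.81 without 2 libraries) and Prox1 (r = 0.64, rho 0.66, permutation adjusted p = 0.00252 and 0.00192; 0.65 without 2 libraries). With C1ql2 it had r = 0.57 (rho 0.52, permutation adjusted p = 0.015 and 0.028; 0.45 without 2 libraries), which did not pass without replicate 8 labelled WT (0.39, permutation adjusted p = 0.144) or without the 6 animals at odds with the label (0.56, permutation adjusted p = 0.063). Its relation to Il16 (r = 0.61, rho 0.34, permutation adjusted p = 0.0355 and 0.235) rested on the far libraries, being 0.26 without 2 of them and 0.28 without replicate 8 labelled WT (permutation adjusted p = 0.298). None of its 4 pairs with CA genes passed (r from -0.11 to 0.28).

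**Figure D4:**
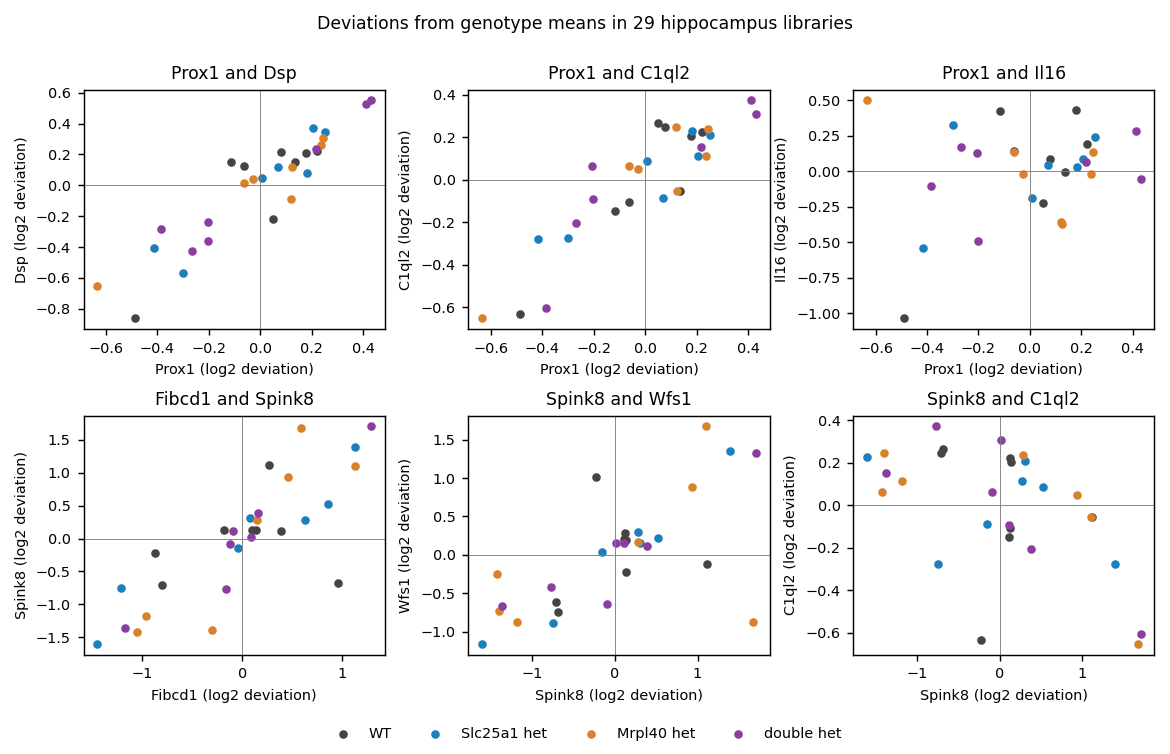
Deviations from the genotype mean of log2 CPM for 6 pairs of genes in the 29 hippocampus libraries, 1 point per library, coloured by labelled genotype. Prox1 lies close to a line with Dsp (r = 0.92) and C1ql2 (r = 0.90) but not with Il16 (r = 0.23), Spink8 rises with Fibcd1 (r = 0.81) and Wfs1 (r = 0.67), and C1ql2 falls as Spink8 rises (r = -0.54).

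The members were then set against 18 lists of other marker genes, each taken as the mean log2 CPM of its tested genes. Both were deviations from genotype means, which gave 162 relations. Of these, 41 passed after adjustment over all 162. The lists too were chosen with earlier results of these data known, so these p-values describe these libraries only. The list of 10 other dentate granule cell genes (Lct, Tdo2, Dock10 and Stxbp6 among them) followed Prox1 with r = 0.98 (rho 0.97), Dsp with 0.93 (rho 0.91) and C1ql2 with 0.92 (rho 0.88), each at a permutation adjusted p of 0.000231 and, for rho, 0.00027. Without the 2 farthest libraries these stayed at 0.97, 0.91 and 0.87. The same 3 genes followed the newborn neuron list of Dcx, Eomes, Igfbpl1, Sox11 and Draxin: Prox1 with r = 0.76 (rho 0.80, permutation adjusted p = 0.000231 and 0.00027; 0.70 without 2 libraries), C1ql2 with 0.71 (rho 0.78, permutation adjusted p = 0.00081 and 0.00027; 0.67 without 2 libraries) and Dsp with 0.65 (rho 0.73, permutation adjusted p = 0.00412 and 0.00054; 0.56 without 2 libraries). Spink8 ran against this list (r = -0.54, rho -0.49, permutation adjusted p = 0.0153 and 0.0447; -0.56 without 2 libraries). Oligodendrocyte markers ran against C1ql2 (r = -0.68, rho -0.50, permutation adjusted p = 0.00397 and 0.0493; -0.49 without 2 libraries) and Prox1 (r = -0.55, rho -0.32, permutation adjusted p = 0.0206 and 0.243; -0.32 without 2 libraries).

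Il16 followed the CA3 list of Grik4, Nectin3, Bok, Iyd, Cpne4 and Coch (r = 0.79, rho 0.77, permutation adjusted p = 0.000231 and 0.00027; 0.76 without 2 libraries). It ran against the other CA1 genes (r = -0.64, rho -0.55, permutation adjusted p = 0.00372 and 0.0211; -0.64 without 2 libraries) and the subiculum genes (r = -0.73, rho -0.69, permutation adjusted p = 0.00216 and 0.00127; -0.58 without 2 libraries). Il16 also rose with the mean log2 CPM of 5 choroid plexus markers (r = 0.52, rho 0.49, permutation adjusted p = 0.00828 and 0.0477; 0.38 without 2 libraries), whose part in its values was not tested. The sum of all 7 choroid plexus markers, another measure, ran from 19.6 to 95.8 CPM over the 29 libraries. Il16 ran against the thalamus (r = -0.60, rho -0.52, permutation adjusted p = 0.00542 and 0.0381; -0.44 without 2 libraries) and striatum lists (r = -0.60, rho -0.48, permutation adjusted p = 0.0322 and 0.0569; -0.30 without 2 libraries). No list of granule cell or newborn neuron genes passed with Il16. In these libraries Prox1, C1ql2 and Dsp thus co-varied with the list of other granule cell genes, and Il16 did not. Since the lists were chosen with earlier results of these data known, this describes the libraries and cannot test the labels.

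The CA1 members each rose with the list of other CA1 genes (Mpped1, Pou3f1, Gpr161 and Nov among them). Wfs1 did so most closely (r = 0.85, rho 0.76, permutation adjusted p = 0.000231 and 0.000405; 0.79 without 2 libraries), then Spink8 (r = 0.67, rho 0.63, permutation adjusted p = 0.00287 and 0.00853; 0.59 without 2 libraries) and Fibcd1 (r = 0.60, rho 0.64, permutation adjusted p = 0.00771 and 0.00475; 0.48 without 2 libraries). All 3 fell as mossy cell markers rose, Spink8 most (r = -0.79, rho -0.74, permutation adjusted p = 0.000231 and 0.000884; -0.73 without 2 libraries). Spink8 and Fibcd1 also fell as neocortical layer markers rose (r = -0.72 and -0.68, rho -0.74 and -0.69, permutation adjusted p = 0.0009 and 0.00216; -0.74 and -0.67 without 2 libraries). Wfs1, itself expressed in cortex, had no such relation that passed.

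Amigo2 rose with the CA3 list (r = 0.51, rho 0.52, permutation adjusted p = 0.0404 and 0.0477; 0.44 without 2 libraries). Its relation to the CA2 list did not pass (r = 0.24, rho 0.31, permutation adjusted p = 0.416 and 0.279; 0.15 without 2 libraries). Against the other dentate granule cell list it passed by r but not by rho (r = -0.53, rho -0.35, permutation adjusted p = 0.04 and 0.196; -0.45 without 2 libraries). Zbtb20 rose with the other dentate granule cell list (r = 0.68, rho 0.71, permutation adjusted p = 0.00347 and 0.00125; 0.68 without 2 libraries). It also rose with the CA2 list (r = 0.63, rho 0.61, permutation adjusted p = 0.00828 and 0.00581; 0.46 without 2 libraries), as did Dsp (r = 0.51, rho 0.48, permutation adjusted p = 0.0331 and 0.0477; 0.35 without 2 libraries). Zbtb20 ran against the ventral hippocampus list of Dcn, Trhr, Grp, Nr2f2 and Cpne7 (r = -0.65, rho -0.74, permutation adjusted p = 0.00397 and 0.000405; -0.70 without 2 libraries), as did Dsp (r = -0.61, rho -0.62, permutation adjusted p = 0.00634 and 0.00648; -0.69 without 2 libraries). The interneuron list ran against Zbtb20 (r = -0.70, rho -0.59, permutation adjusted p = 0.00372 and 0.0123; -0.53 without 2 libraries) and likewise against all 4 dentate genes. For these r was -0.72 with C1ql2, -0.69 with Dsp, -0.65 with Prox1 and -0.60 with Il16 (rho -0.49, -0.50, -0.47 and -0.46), with permutation adjusted p of 0.00216, 0.00356, 0.00401 and 0.0173, and for rho of 0.054, 0.0493, 0.0643 and 0.0688. Without 2 libraries they were -0.61, -0.55, -0.53 and -0.32.

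The genes most like each member were sought among 13551 genes by r of the same deviations over 29 hippocampus libraries. For Prox1 they were Dgkh (0.97), Mcm6 (0.95) and Dock10 (0.95), for C1ql2 Sema5a (0.95), Stxbp6 (0.95) and Gpc4 (0.94), and for Dsp Plekha2 (0.97), Slc26a10 (0.95) and Net1 (0.95). Il16 was closest to Golm1 (0.94), Lurap1l (0.88) and Ccbe1 (0.87). Fibcd1 had Ankrd63 (0.85) and Trpc4 (0.84), Spink8 had Col11a1 (0.91) and Rasl11b (0.90), and Wfs1 had Pex5l (0.93), Man1a (0.93) and Asap2 (0.91). For Amigo2 they were Sms (0.89), Tmem215 (0.89) and Tonsl (0.88), and for Zbtb20 Orai2 (0.94), Cap1 (0.94) and Nfib (0.92). The neighbourhoods differed in size: 213 genes had r above 0.8 with Prox1, 173 with Dsp and 161 with C1ql2, but 44 with Il16 and 10 with Fibcd1.

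Deviations in cortex and hippocampus of the same animal were compared for each gene over 29 animals, with adjustment over the 9 genes. They went together for Il16 (r = 0.55, rho 0.49, permutation adjusted p = 0.0101 and 0.0846; 0.53 without the 2 farthest animals). The other 8 did not pass, with r between -0.33 (Amigo2, rho -0.27) and 0.19 (Zbtb20, rho 0.22), all at a permutation adjusted p of 0.7. The difference between Il16 and the others was not tested.

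The study compares each heterozygous genotype with WT and asks, through the double het animals, whether the alleles interact. In hippocampus no member passed edgeR's quasi-likelihood test at a false discovery rate of 0.05 in Slc25a1 het (0% of all 20162 tested genes passed), Mrpl40 het (0.00496%), double het (0.00992%) or in the interaction (0%), with a lowest adjusted p of 0.641. At an unadjusted p under 0.05 none of the 9 stood in any of these, against 7.77%, 8.19%, 5.28% and 3.39% of all genes. DESeq2 called none either and had none at an unadjusted p under 0.05. The 3 comparisons share the WT libraries, and their values are given side by side only.

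The median log2 fold change of the 4 dentate genes in hippocampus was 0.07 in Slc25a1 het libraries, -0.04 in Mrpl40 het libraries and 0.02 in double het libraries. That of the 4 CA genes was 0.15, 0.46 and 0.35, and over all tested genes it was 0.00, -0.01 and -0.00. All 4 CA genes lay above WT in double het and also in Mrpl40 het libraries, and none passed. Over all 9 genes the fold changes ran from -0.15 to 0.88 in Mrpl40 het, from -0.14 to 0.58 in double het and from -0.35 to 0.24 in Slc25a1 het libraries, the highest in the first 2 being those of Spink8. Its 95% interval in Mrpl40 het was -0.14 to 1.89, so changes from slightly below WT to 3.70-fold above it were within the error. Without the 3 hippocampus libraries highest in choroid plexus and cerebellar markers, of which replicate 5 labelled Mrpl40 het (21.7 CPM of Spink8) is in this comparison, its value was 0.52. With the replicate number as a block its value in double het libraries was 0.37. Without the 6 animals with an Slc25a1 level at odds with the label, 1 of the 4 CA genes lay above WT in double het libraries (median -0.08, Spink8 -0.04), while all 4 did so in Mrpl40 het libraries (median 0.34). Those 6 include replicate 5 labelled double het, the highest of its group in Fibcd1, Spink8 and Wfs1.

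The intervals were far narrower for the steadier genes. For Zbtb20 in Mrpl40 het hippocampus the 95% interval of the log2 fold change was -0.13 to 0.28, and for Prox1 in double het hippocampus -0.30 to 0.28. For Fibcd1 in double het hippocampus it was -0.54 to 1.09 and for Wfs1 -0.42 to 1.27. The spread of the CA1 genes among animals set how much of a change could be seen in them.

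**Figure D5:**
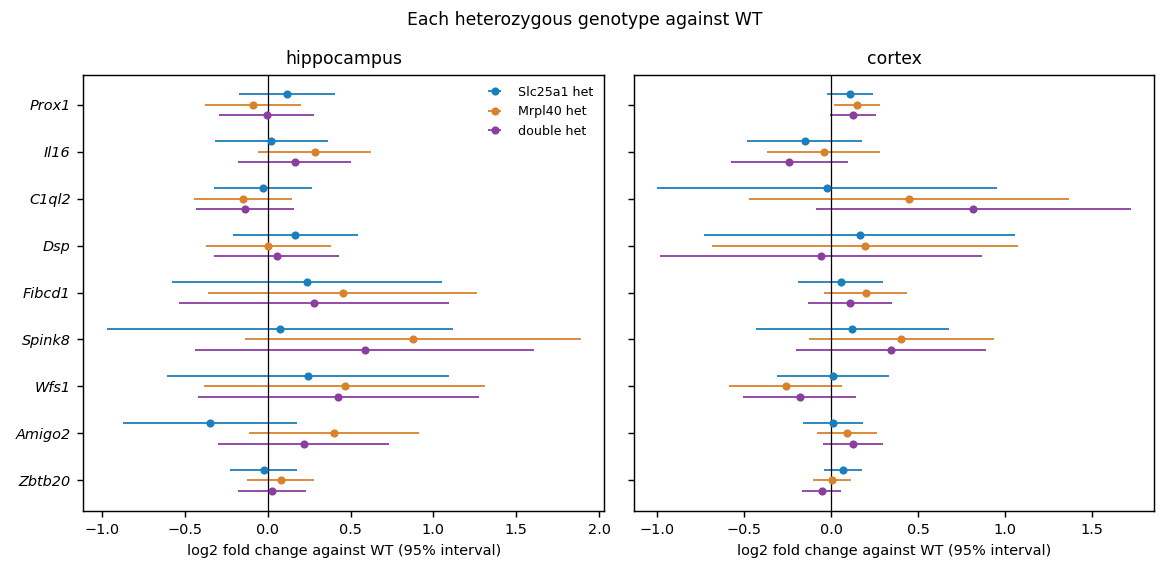
Fitted log2 fold change of each gene against WT, with 95% intervals, for the 3 heterozygous genotypes in hippocampus (left) and cortex (right). All intervals but that of Prox1 in Mrpl40 het cortex include 0, and those of Spink8, Fibcd1 and Wfs1 are widest in hippocampus, those of C1ql2 and Dsp in cortex.

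In cortex, too, no member passed edgeR's test in Slc25a1 het (0% of 20394 genes passed), Mrpl40 het (0.0294%), double het (0.0686%) or in the interaction (0%), with a lowest adjusted p of 0.493. Prox1 in Mrpl40 het was the 1 value at an unadjusted p under 0.05, where 6.94% of all genes were: its log2 fold change was 0.15 ± 0.06 (SE), at an unadjusted p of 0.0265 and an adjusted p of 0.675 by edgeR. The groups overlapped, at 10.7 to 12.8 CPM in WT and 11.3 to 15.3 CPM in Mrpl40 het libraries. In Slc25a1 het, double het and the interaction no member reached an unadjusted p under 0.05, against 3.17%, 10.9% and 5.35% of all genes. DESeq2 called no member in cortex and also had Prox1 in Mrpl40 het at an unadjusted p of 0.0232.

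The highest cortex fold change was that of C1ql2 in double het libraries, at a log2 value of 0.82 with a 95% interval of -0.09 to 1.72. It contains replicate 3 with 6.14 CPM, where the next highest library of the group had 1.56 CPM. With the replicate number as a block the value was 0.45, and without the 6 animals at odds with the label it was 1.10.

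Whether a genotype acted differently in the 2 tissues was fitted with the animal as a block. No member passed edgeR's test for Slc25a1 het (0% of 21354 genes passed), Mrpl40 het (0%) or double het (0.0234%). At an unadjusted p under 0.05 stood none for Slc25a1 het (6.00% of all genes), and Il16 for Mrpl40 het (5.83%) and double het (5.03%). For Il16 the effect of Mrpl40 het on the log2 scale was higher in hippocampus than in cortex by 0.34 ± 0.15 (SE, unadjusted p of 0.032, edgeR adjusted p = 0.829), and that of double het by 0.44 ± 0.16 (unadjusted p of 0.00997, edgeR adjusted p = 0.878). Both share the WT animals. DESeq2 called none of the 9 in these comparisons and had Il16 for double het at an unadjusted p of 0.0152.

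Marker genes of the other fields and cell types were read from the same fits. Of the 98 genes of the 18 lists that were tested in hippocampus, none passed edgeR's test in any of the 4 comparisons, and of 92 in cortex only the microglial gene C1qa did, in double het libraries (log2 fold change -0.31 ± 0.06, SE, edgeR adjusted p = 0.0262). The summed other dentate granule cell genes in hippocampus ran from 744 to 1180.5 CPM in WT (median 1082), 689 to 1196 (1100.4) in Mrpl40 het, 816 to 1379 (972) in double het and 847 to 1266 (1165) in Slc25a1 het libraries, and overlapped throughout. The summed other CA1 genes ran from 164 to 416 CPM in WT (median 241), 141 to 475 (232) in Mrpl40 het, 167 to 528 (264) in double het and 142 to 522 (294) in Slc25a1 het libraries. Their ranges overlapped as those of the CA1 members did.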

How the data were processed

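The authors' table of raw counts has 1 unscaled column for each of 59 libraries. A further deposited table holds a signal value per gene, the count divided by 1 factor per library, with factors made within each tissue, and was not used between tissues. HISAT2, featureCounts, DESeq2 and FastQC and the builds mm39 and GRCm39 are named in the submitters' processing notes, without versions or roles. Coordinates, exon lengths and promoter windows are from GRCm38, another build, and were used only where that build is named.

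The members and lists were chosen with earlier results of these data known. All 9 members were named with their levels, a fold change of a member was printed with its SE where its unadjusted p was under 0.05, the others were given by range and count with single intervals chosen after their values were seen, and the 3 nearest genes per member were taken by r. A few genes of the lists and nearest genes are not reported here. CPM were scaled by TMM over all 59 libraries together, and log2 CPM used a prior count of 2. Counts were fitted per tissue with edgeR 4.0.16 in R 4.3.3 (TMM, its filter on low counts, robust quasi-likelihood test, all 4 genotypes together, Benjamini-Hochberg over all tested genes, threshold 0.05), and both tissues together with the animal as a block, since the labels give the same animal for both. DESeq2 1.42.0 was the other test. Correlations used 100000 two-sided permutations within genotype (Python 3.11.15). The labels do not say whether animals shared litters. Both kinds of script were tested on simulated data. Alternatives were the 2 tools and size factors, no filter, the replicate number or no animal block, and libraries left out.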

Additional observations from a re-analysis of the deposited data

Results flagged for a closer look

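By Dixon's test on CPM, a library far from the rest of its group was found in 11 of 72 groups of gene, tissue and genotype. Of these, 10 were in hippocampus. Chance flags about 1 in 20 groups where values are normally distributed, which was not checked for CPM. Groups of the same libraries are not independent. In hippocampus labelled Mrpl40 het, replicate 5 was lowest for Prox1 (141 CPM, nearest 210.0) and C1ql2 (97.9 CPM, nearest 148) and highest for Amigo2 (47.4 CPM, nearest 22.0). In hippocampus labelled double het, replicate 5 was highest for Fibcd1 (176 CPM, nearest 80.6), Spink8 (20.5 CPM, nearest 8.16) and Wfs1 (211 CPM, nearest 93.6). In hippocampus labelled WT, replicate 8 was highest for Wfs1 (131 CPM, nearest 79.6) and lowest for Zbtb20 (318 CPM, nearest 488), and replicate 3 was highest for Spink8 (10.3 CPM, nearest 5.18). Replicate 1 labelled Slc25a1 het was highest for Wfs1 in hippocampus (183 CPM, nearest 87.7). In cortex, replicate 3 labelled double het was highest for C1ql2 (6.14 CPM, nearest 1.56).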

How the results depend on the processing

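No member passed under any alternative run. All 11 comparisons were run with DESeq2 (lowest adjusted p = 0.428, 2 of 99 tests without an adjusted p) and without the 6 animals against the Slc25a1 label (0.72). The 8 comparisons within a tissue were run with DESeq2 size factors in edgeR (0.468), with no filter on low counts (0.608) and with the replicate block (0.629). The 4 of hippocampus were run without the 3 libraries highest in choroid plexus and cerebellar markers (0.436) and, chosen after seeing the data, without replicate 8 labelled WT (0.645), and the 3 tissue differences with no animal block (0.893). Over 39 same-numbered pairs of libraries of different genotypes in hippocampus the correlation of deviations had a median of 0.013, and 7 were over 0.1. Over 276 pairs with different numbers the median was 0.006, and 39 were over 0.1. Since even the 2 tissues of an animal had a median of only 0.055, these values cannot show whether replicate numbers pair animals across genotypes. With the replicate block 0 of 9 members passed in each of the 8 comparisons within a tissue, as without it. The log2 fold change of Spink8 in double het hippocampus turned from 0.58 to -0.036 without the 6 animals. Those 6 include replicate 5 labelled double het, with 20.5 CPM of Spink8 (nearest 8.16). The log2 fold change of Dsp in Slc25a1 het cortex turned from 0.16 to -0.0044 with the replicate block. The cause of either change was not tested. The 15 pairs of members became 9 without the 6 animals (fewer libraries), where Fibcd1 and Wfs1 had r = 0.48 and Spink8 and Wfs1 r = 0.58, with permutation adjusted p of 0.122 and 0.063. The relation of C1ql2 and Zbtb20 did not pass without replicate 8 labelled WT (r = 0.39, permutation adjusted p = 0.144). All WT tissue ratios kept their sign with DESeq2 size factors and with no animal block. The deposited normalized counts were not run for these ratios, because they were scaled separately in each tissue. The few reads of Dsp, C1ql2 and Spink8 in cortex limit what could be seen there.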
